A study of Homo sapiens with 6 samples.

Results

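The genes described here are 39 members of the unfolded protein response and of the ATF4 branch of the integrated stress response, measured by RNA-Seq in H1155 cells. They are the rows of a table of 58735 genes whose symbol is in a list of 17 genes of protein folding and ER-associated degradation (ERAD) in the endoplasmic reticulum (ER), 5 sensors and transcription factors, and 17 targets of ATF4, and each of the 39 symbols was found once. H1155 is an established neuroendocrine non–small cell lung cancer line that grows as clusters in suspension and expresses GFI1, a transcriptional repressor best known from blood formation. The study compared 3 libraries labelled WT with 3 labelled GFI1-KO. Both groups were grown in DMEM with 10% FBS and the labels give no treatment for either. GFI1-KO cells were made by CRISPR/Cas9 with pairs of guide RNAs against the GFI1 promoter region, and GFP-positive cells were sorted and grown as monoclonal clones, but how many clones the 3 libraries hold is not stated, so that the knockout and the choice of a clone cannot be told apart.

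When unfolded proteins accumulate in the ER, the chaperone BiP, encoded by HSPA5, leaves the sensors IRE1 (ERN1), PERK (EIF2AK3) and ATF6. IRE1 splices the XBP1 mRNA and ATF6 is cleaved, and the resulting factors raise the transcription of ER chaperones and of the ERAD machinery. PERK, like the other eIF2α kinases, slows translation by phosphorylating eIF2α, which allows ATF4 to be translated, and ATF4 raises genes of amino acid synthesis and transport, DDIT3 (CHOP) and PPP1R15A (GADD34), whose product dephosphorylates eIF2α. Splicing of XBP1, cleavage of ATF6 and translation of ATF4 are not visible in counts per gene. Secretory cells with neuroendocrine features depend on this system to fold the peptides and granule proteins they release.

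Library totals lay between 14882914 and 17692882 counts, and the smallest count taken as measurable, 3, corresponded to between 0.170 and 0.202 CPM, which covers counting error only. GFI1 itself, the check of the labels, gave 153, 106 and 125 counts with the WT label and 174, 188 and 170 with the GFI1-KO label, so it was not lower in the latter. It was called higher, with a log2 fold change of 0.31 (edgeR adjusted p = 0.0273), and did not pass after the correction for GC content described below, at 0.04 (adjusted p = 0.81). The call on GFI1 was also lost with DESeq2 (adjusted p = 0.128) and at an edgeR adjusted p of at most 0.01. Each direction given here therefore rests on the labels. Neuroendocrine markers were present in every library, with a summed level of 606 to 615 FPKM (counts divided by the deposited gene length in kilobases and by the library total, scaled as usual) in WT and of 871 to 879 FPKM in GFI1-KO, and 6 of the 9 were higher and 3 lower. The 4 epithelial markers summed to 41.4 to 44.4 FPKM in WT and 44.6 to 49.9 FPKM in GFI1-KO, with 1 higher and 2 lower. Of the markers of other cells, the 4 leukocyte markers summed to at most 0.206 FPKM in a library, with 1 at 0 in every library. The 6 fibroblast markers summed to 16.5 to 16.9 FPKM in WT and 12.5 to 12.9 FPKM in GFI1-KO, with DCN at 0 in every library. Most of both sums was COL1A2, at 15.8 and 10.8 FPKM, which was lower, as was COL1A1. The 2 called higher were COL3A1, from 2, 3 and 2 counts in WT to 129, 143 and 170 in GFI1-KO (log2 fold change 5.75), and PDGFRA. The 3 endothelial markers summed to 3.53 to 3.97 and 1.74 to 1.98 FPKM, with 1 lower. Their part in the results below was not tested. In RNA from whole cultures, fewer cells of a type and less RNA per cell cannot be told apart.

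All 39 members passed the filter on low counts and were among the 17514 genes tested with edgeR's quasi-likelihood test, with p-values adjusted by Benjamini-Hochberg over all of them and called at an adjusted p of at most 0.05. Of the 39, 29 were higher in GFI1-KO, 6 were lower and 4 did not pass. Over all genes tested, 36.5% were called higher, 35.9% lower and 72.4% either way, so that a call alone was common in this comparison and the share of members called lower, 15.4%, was below that of all genes. The median log2 fold change, GFI1-KO minus WT, was 0.38 for the members and 0.00 for all genes tested. For 35 of the 39 members no normalized count of one group fell within the range of the other, against 74.4% of all genes tested. A call together with a log2 fold change of 0.5 or more in size was seen for 16 members, against 44.4% of all genes tested, and all 16 were higher in GFI1-KO, although 1 of them, SDF2L1, was lower after the correction for GC content. The labels do not say that libraries of a group came from separate cultures, so the p-values measure the spread between these libraries, which may be technical.

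Fold changes moved with base composition over the whole table. Across the tested genes, Spearman's rho between the log2 fold change and the GC content of the exons was 0.58, and across the 39 members it was 0.81. Genes are not independent, and both are descriptions. The comparison was therefore also fitted with offsets that remove the trend on GC content and gene length in each library, which brought rho to 0.03 over all genes and to -0.06 over the members. In that fit 31 members were higher and 2 lower, against 32.8% and 28.3% of all genes tested. Values from it are called GC-corrected below. Of the 39 members, 25 were higher in both fits and 0 were lower in both. The share of all genes tested that was called in both fits is not given. Counts over both fits, here and below, are therefore descriptions without that comparison. The part of base composition in each difference was not tested.

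**Figure D1:**
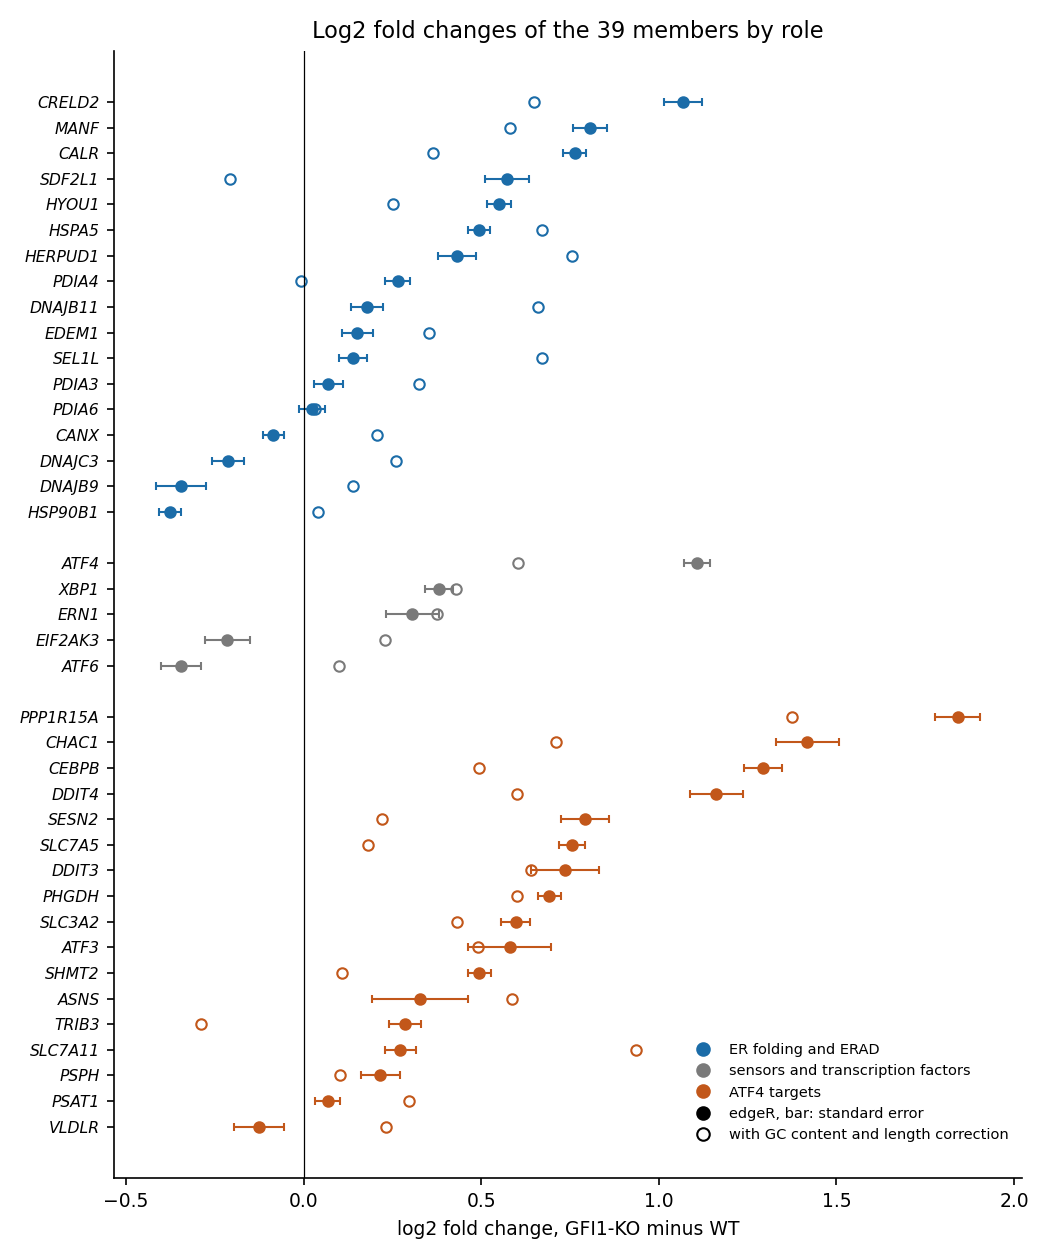
Log2 fold change (GFI1-KO minus WT, 3 libraries each) of the 39 members, grouped by role and ordered by size. Filled points with bars give the edgeR value and its standard error and open points the GC-corrected value. Filled points of ATF4 targets run from -0.13 for VLDLR to 1.84 for PPP1R15A and those of ER members from -0.38 for HSP90B1 to 1.07 for CRELD2, and the GC-corrected points of HSP90B1, CANX, DNAJB9, DNAJC3, ATF6, EIF2AK3 and VLDLR lie above 0 while those of SDF2L1, PDIA4 and TRIB3 lie below it.

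ER folding and ERAD genes moved in both directions. Of the 17, 11 were higher in GFI1-KO, 4 were lower and 2 did not pass, and their median log2 fold change was 0.18. In the GC-corrected fit 12 were higher, 1 lower and 4 did not pass, with a median of 0.33. The 9 that were higher in both fits were HSPA5, CALR, DNAJB11, HYOU1, MANF, CRELD2, HERPUD1, SEL1L and EDEM1.

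Many ER chaperone genes carry the ER stress response element (ERSE), which binds ATF6 together with NF-Y and also XBP1, or the shorter ERSE-II. Promoters of 35 members, from 250 bases before to 50 after each start that the RefSeq table (GRCh38.p14) lists for the gene, were searched on both strands for ERSE (CCAAT, 9 bases of any kind, then CCACG) and ERSE-II (ATTGG, 1 base of any kind, then CCACG). Either was found in 10 of the 35 members, against 44 of 27305 genes with a promoter (0.161%). By list, it was found in 9 of 16 ER members, in XBP1 among the 5 sensors and factors and in 0 of 14 ATF4 targets. The 35 members are among the 27305 genes and were listed as genes of these stress responses. Their share with a match, here and for the other elements below, is therefore a description and not a test. Some genes have several starts (35116 windows for the 27305 genes). The matches in CANX, PDIA6, HSP90B1 and CRELD2 lie before a start inside the gene span of the deposited table. PDIA3, PSPH, SHMT2 and SLC7A11 had no promoter in the table used. The stretches below are on the strand of the gene, with the motif in capitals. They are shown because genes with ERSE differed in direction without correction, and genes with ERSE-II with it. A match is a description of letters and not a site shown to be bound.
HSPA5 ERSE at chr9:125241386-125241414, minus strand: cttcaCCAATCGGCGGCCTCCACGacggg
HSP90B1 first ERSE at chr12:103930211-103930239, plus strand: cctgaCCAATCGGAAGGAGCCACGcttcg
HSP90B1 second ERSE at chr12:103930316-103930344, plus strand: gggtgCGTGGTGCGGCGCGATTGGtgggt
CALR ERSE at chr19:12938379-12938407, plus strand: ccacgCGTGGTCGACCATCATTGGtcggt
CANX ERSE at chr5:179698773-179698801, plus strand: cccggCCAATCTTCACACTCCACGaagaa
PDIA6 ERSE at chr2:10812848-10812876, minus strand: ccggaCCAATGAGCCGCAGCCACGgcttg
CRELD2 ERSE at chr22:49918549-49918577, plus strand: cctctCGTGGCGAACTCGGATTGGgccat
XBP1 ERSE at chr22:28800598-28800626, minus strand: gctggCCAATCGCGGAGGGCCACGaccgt
HYOU1 ERSE-II at chr11:119057269-119057289, minus strand: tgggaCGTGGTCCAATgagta
HYOU1 ERSE-II with UPRE at chr11:119057375-119057398, minus strand: ccccgTGACGTGGTCCAATcccag
SDF2L1 ERSE-II at chr22:21642109-21642129, plus strand: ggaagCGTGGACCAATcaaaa
HERPUD1 ERSE-II at chr16:56932020-56932040, plus strand: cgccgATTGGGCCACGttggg

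HYOU1 was also the only member with the XBP1-bound element UPRE (TGACGTGG), in capitals above where it overlaps an ERSE-II. That element was in 0.927% of all promoters. Of the 10 members with ERSE or ERSE-II, 7 were higher in GFI1-KO, HSP90B1 and CANX were lower and PDIA6 did not pass. In the GC-corrected fit 7 were higher, SDF2L1 was lower and HSP90B1 and PDIA6 did not pass. Calls on genes with ERSE thus differed in direction only in the fit without correction. Those on genes with ERSE-II differed only in the GC-corrected fit.

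HSPA5, which encodes the Hsp70 chaperone BiP and lies at chr9:125234853-125241330, had 8088, 7827 and 8287 normalized counts in the WT libraries and 11493, 11263 and 11324 in the GFI1-KO libraries. All 3 GFI1-KO libraries were above all WT libraries. The log2 fold change was 0.49 ± 0.03 (SE, 3 libraries a group, edgeR adjusted p = 2.26e-13), and the GC-corrected value was 0.67. HSP90B1, the gene of the Hsp90 chaperone GRP94 at chr12:103930107-103953645, had 15926, 15315 and 15602 normalized counts in WT and 12304, 11947 and 11848 in GFI1-KO. Here every GFI1-KO library was below every WT library, with a log2 fold change of -0.38 ± 0.03 (edgeR adjusted p = 3.26e-11), but the GC-corrected value was 0.04 and did not pass (adjusted p = 0.25). The GC content of their exons is 44.2% for HSPA5 and 40.5% for HSP90B1, and the trend that the correction removed from their log2 fold changes was -0.18 and -0.42.

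CALR and CANX encode calreticulin and calnexin, the soluble and the membrane-bound lectin chaperone of newly made glycoproteins. CALR had 7374, 7501 and 7774 normalized counts in WT and 12816, 12984 and 12634 in GFI1-KO. The groups were far apart, with a log2 fold change of 0.76 ± 0.03 (edgeR adjusted p = 3.12e-17) and a GC-corrected value of 0.36. CANX stood at 12857 ± 18.3 normalized counts (SD, n = 3) in WT and 12122 ± 164 in GFI1-KO. Its log2 fold change was -0.08 ± 0.03 and passed the test (edgeR adjusted p = 0.0143), while the GC-corrected value was 0.21. The call on CANX was lost when no filter on low counts was applied and without GFI1-KO replicate 2.

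Per length, these 4 genes were the ER members with the highest levels, and their order on the uncorrected scale differed between the groups. In WT, HSP90B1 was highest at 202 ± 3.87 FPKM (SD, n = 3), CALR followed at 169 ± 4.65 FPKM, and HSPA5 (125 ± 3.59 FPKM) and CANX (125 ± 0.23 FPKM) did not differ beyond their spread. In GFI1-KO, CALR was highest at 283 ± 3.77 FPKM, followed by HSPA5 at 174 ± 1.72 FPKM, HSP90B1 at 154 ± 2.94 FPKM and CANX at 117 ± 1.61 FPKM. The ratio of HSPA5 to HSP90B1 in FPKM was 0.610, 0.614 and 0.638 in the WT libraries and 1.12, 1.13 and 1.15 in the GFI1-KO libraries. With the GC-corrected fold changes applied to the WT means the GFI1-KO ratio was 0.963, so that it did not pass 1. The ratio of CALR to CANX was 1.35 ± 0.03 in WT and 2.43 ± 0.07 in GFI1-KO, but 1.50 in GFI1-KO with the GC-corrected fold changes. The order depended on the fit as well, since the levels obtained in this way in GFI1-KO were 217 FPKM for CALR, 207 for HSP90B1, 199.6 for HSPA5 and 144 for CANX. An exact permutation test of 3 against 3 cannot give a p below 0.1, so no p is given for the ratios. Of the summed FPKM of the 14 folding members, which was 901 on average in WT and 1068 in GFI1-KO, HSP90B1 made up 22.4% and 14.4%, and CALR 18.7% and 26.5%. With the GC-corrected fold changes the shares in GFI1-KO were 19.0% and 19.9%.

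**Figure D2:**
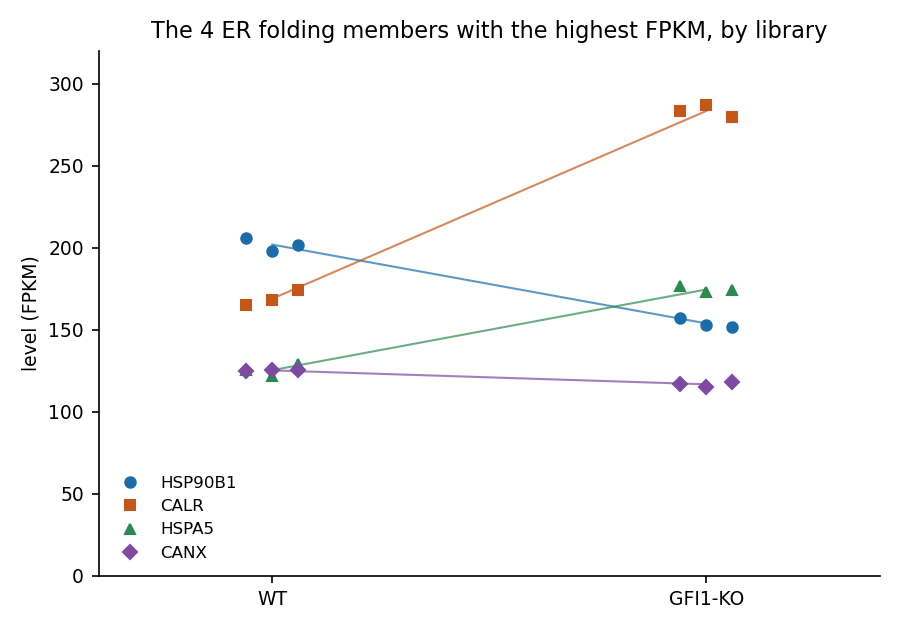
Level in FPKM of HSP90B1, CALR, HSPA5 and CANX in each library. Points are libraries and lines join the group means. HSP90B1 lies highest in the WT libraries at about 202 FPKM and below CALR and HSPA5 in GFI1-KO at 154 FPKM, while CALR rises from 169 to 283 FPKM and HSPA5 from 125 to 174 FPKM. These levels are not corrected for GC content. With the GC-corrected fold changes HSP90B1 would lie at 207 FPKM in GFI1-KO, above HSPA5, and CALR at 217 FPKM.

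CRELD2, an ER-resident protein with disulfide isomerase activity, had 587, 587 and 601 normalized counts in WT and 1198, 1279 and 1245 in GFI1-KO. Its level was 2.10-fold in GFI1-KO, the largest change of the ER members (log2 fold change 1.07 ± 0.05, GC-corrected 0.65). MANF, which is secreted under ER stress, had 1057, 992 and 936 in WT and 1702, 1782 and 1734 in GFI1-KO. The log2 fold change was 0.81 ± 0.05, and 0.58 after GC correction. HYOU1, the nucleotide exchange factor of BiP known as GRP170, had 4165, 4166 and 4362 in WT and 6158, 6291 and 6138 in GFI1-KO. It rose by a log2 fold change of 0.55 ± 0.03, with 0.25 after GC correction. SDF2L1, a partner of the BiP cochaperones, had 472, 447 and 473 in WT and 670, 689 and 714 in GFI1-KO. Its groups did not overlap either (0.57 ± 0.06), but with the highest GC content of the ER members, 64.5%, its GC-corrected value was -0.21 and passed in the other direction (edgeR adjusted p = 0.00708).

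The J-domain cochaperones, which bring clients to BiP and stimulate its ATPase, divided. DNAJB11 (ERdj3) was higher, with a log2 fold change of 0.18 ± 0.05, and more so after GC correction at 0.66. DNAJB9 (ERdj4, a repressor of IRE1) and DNAJC3 (p58IPK) were lower at -0.35 ± 0.07 and -0.21 ± 0.05, and the GC-corrected values were 0.14, which did not pass, and 0.26, which did. Of the 3 members of the PDIA family of disulfide isomerases, PDIA4 was higher by 0.27 ± 0.04, with -0.01 after GC correction, and PDIA3 (0.07 ± 0.04) and PDIA6 (0.02 ± 0.04) did not pass. PDIA3 passed after GC correction, at 0.33. The 3 ERAD members were higher in both fits: HERPUD1, which organizes the ubiquitin ligase complex, by 0.43 ± 0.05 (GC-corrected 0.76), EDEM1, which hands misfolded glycoproteins to degradation, by 0.15 ± 0.04 (0.35), and SEL1L, the adaptor of the ligase HRD1, by 0.14 ± 0.04 (0.67). Reads of overlapping genes cannot be told apart without a stated strand setting. Coding genes overlap DNAJB9 (PNPLA8 and THAP5), DNAJB11 (TBCCD1 and AC068631.2), CRELD2 (ALG12), HSP90B1 (C12orf73), PDIA6 (ATP6V1C2), PDIA3 (ELL3 and AC018512.1) and CANX (CBY3). In this order, the overlapping gene with the most counts, coding or not, has 7393, 2549, 2309, 1443, 362, 161 and 89 over the 6 libraries. AC068631.2 lies on the strand of DNAJB11, so a strand setting would not separate it.

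**Figure D3:**
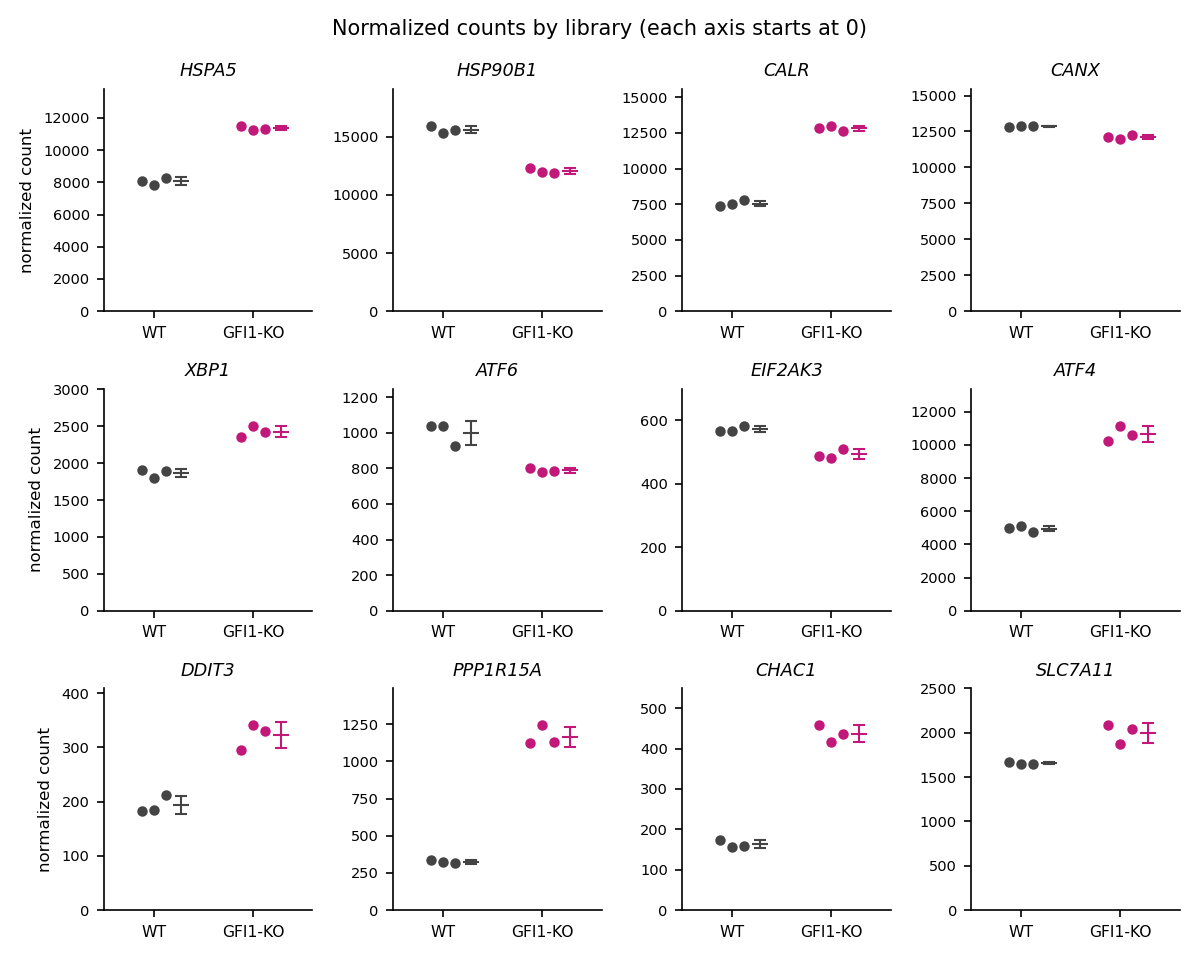
Normalized counts of 12 members in each of the 3 WT (grey) and 3 GFI1-KO (magenta) libraries, with the mean and SD beside the points. Every axis starts at 0. In all 12 the groups do not overlap: HSP90B1, CANX, ATF6 and EIF2AK3 are lower in GFI1-KO, although their GC-corrected log2 fold changes are 0.04, 0.21, 0.10 and 0.23, and the others are higher, PPP1R15A most, from 325 to 1167.

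Among the 5 sensors and transcription factors, ATF4, XBP1 and ERN1 were higher in GFI1-KO and ATF6 and EIF2AK3 lower, and the median log2 fold change was 0.31. ATF4, at chr22:39519695-39522685, had 5011, 5080 and 4770 normalized counts in WT and 10227, 11167 and 10612 in GFI1-KO. Its mRNA was thus 2.15-fold in GFI1-KO (log2 fold change 1.11 ± 0.04, edgeR adjusted p = 1.85e-19), and the GC-corrected value was 0.60. At 255 ± 11.4 FPKM in GFI1-KO it was, after CALR, the member with the second highest level on the uncorrected scale. With the GC-corrected fold changes it would not keep this rank. Both its WT level and its GC-corrected log2 fold change lie below those of HSPA5 (120 against 125 FPKM, 0.60 against 0.67). Its count is uncertain, because 15.1% of its 50-base words are shared with other genes, its processed pseudogenes among them.

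XBP1, the target of IRE1 splicing, had 1902, 1803 and 1892 normalized counts in WT and 2362, 2511 and 2417 in GFI1-KO. All GFI1-KO libraries were higher, with a log2 fold change of 0.38 ± 0.04 (edgeR adjusted p = 2.29e-09) and 0.43 after GC correction, so that both fits gave a like value. ERN1, which encodes IRE1, had 373, 435 and 373 in WT and 503, 465 and 489 in GFI1-KO. The change was smaller, 0.31 ± 0.07, and also held in the GC-corrected fit at 0.38. ATF6 had 1041, 1041 and 924 in WT and 803, 778 and 786 in GFI1-KO. The log2 fold change was -0.34 ± 0.06, but 0.10 with no call after GC correction (adjusted p = 0.127). EIF2AK3, which encodes PERK, had 567, 566 and 584 in WT and 486, 482 and 511 in GFI1-KO. Its log2 fold change of -0.21 ± 0.06 turned to 0.23 with GC correction (adjusted p = 0.00231), so that for ATF6 and EIF2AK3 the direction depended on the fit.

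Most ATF4 targets were higher. Of the 17, 15 were higher in GFI1-KO, 0 were lower, and PSAT1 and VLDLR did not pass. The median log2 fold change was 0.60, and 10 of the 17 were called with a log2 fold change of 0.5 or more, against 5 of the 17 ER members and 44.4% of all genes tested. In the GC-corrected fit 15 were higher, 13 of them as before, TRIB3 was lower and PSPH did not pass, with a median of 0.49. There, 7 ATF4 targets and 6 ER members were called with a log2 fold change of 0.5 or more, against 28.4% of all genes tested. The 2 lists were not tested against each other, and they differ in base composition, with a median GC content of 52.8% for ATF4 targets and 44.2% for ER members.

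ATF4 acts as a dimer with C/EBP proteins on the C/EBP-ATF response element (CARE). The letters TGATGNAA, searched on both strands of the same promoter windows, were found in 4 of 14 ATF4 targets, in 5 of 35 members and in 4.46% of all promoters. The 5 members were ASNS, ATF3, CHAC1, SLC3A2 and HERPUD1. All 5 were higher in both fits. The match in SLC3A2 lies after the start and is not shown. Those in ASNS and CHAC1 lie before a start inside the gene span of the deposited table. In the 4 stretches below the motif is in capitals, and HERPUD1 is the member that holds both kinds of element.
ASNS CARE at chr7:97872464-97872481, minus strand: aggcaTGATGAAActtcc
ATF3 CARE at chr1:212565211-212565228, plus strand: caggaTGATGGAAggctg
CHAC1 CARE at chr15:40953257-40953274, plus strand: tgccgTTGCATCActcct
HERPUD1 CARE at chr16:56931961-56931978, plus strand: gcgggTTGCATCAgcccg

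Of the 9 stress-induced regulators among the targets 8 were higher, and the 4 largest log2 fold changes of the targets without correction were among them. With GC correction 8 were higher and TRIB3 lower, and only PPP1R15A of them lay above the transporter SLC7A11. PPP1R15A, the eIF2α phosphatase subunit GADD34 at chr19:48872392-48876057, had 338, 323 and 315 normalized counts in WT and 1124, 1245 and 1130 in GFI1-KO. The change was 3.58-fold, the largest of the 39 members in either fit (log2 fold change 1.84 ± 0.06, edgeR adjusted p = 6.40e-19, GC-corrected 1.38). PPP1R15B, its constitutive counterpart and not a member, was lower in both fits, with 1714 ± 21.1 and 836 ± 46.6 normalized counts (SD, n = 3) and a log2 fold change of -1.04 ± 0.05 (GC-corrected -0.73). The ratio of PPP1R15A to PPP1R15B in FPKM was 0.335, 0.314 and 0.313 in the WT libraries and 2.14, 2.64 and 2.32 in the GFI1-KO libraries, so that the inducible subunit was the lower of the pair in every WT library and the higher in every GFI1-KO library. With the GC-corrected fold changes the ratio in GFI1-KO was 1.38.

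CHAC1, which degrades glutathione, had 174, 157 and 158 normalized counts in WT and 458, 416 and 437 in GFI1-KO. No library of one group came near the other, and the log2 fold change was 1.42 ± 0.09 (GC-corrected 0.71). CEBPB, a bZIP factor and partner of ATF4, had 649, 615 and 592 in WT and 1562, 1439 and 1555 in GFI1-KO. It had the highest GC content of the members, 66.2%, and its log2 fold change of 1.29 ± 0.05 fell to 0.49 with GC correction and stayed past the threshold. DDIT4 (REDD1), an inhibitor of mTORC1, had 470, 536 and 386 in WT and 1060, 1012 and 1037 in GFI1-KO. It varied more in WT than in GFI1-KO, and the log2 fold change was 1.16 ± 0.07 (GC-corrected 0.60). SESN2, which signals low leucine to mTORC1, had 375, 394 and 395 in WT and 699, 626 and 688 in GFI1-KO. The groups were apart at 0.79 ± 0.07, and by 0.22 after GC correction.

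DDIT3, the gene of the proapoptotic factor CHOP at chr12:57516588-57521737, had 182, 185 and 213 normalized counts in WT and 295, 341 and 330 in GFI1-KO. Every GFI1-KO library was higher, with a log2 fold change of 0.74 ± 0.10 (edgeR adjusted p = 1.32e-07), and the GC-corrected value of 0.64 was close to it. DDIT3 overlaps the coding genes MARS, MBD6 and AC022506.1, and the largest overlapping gene has 34499 counts over the 6 libraries. Without a stated strand setting the reads of MARS and MBD6 cannot be told apart from its own. AC022506.1 lies on the strand of DDIT3, so a strand setting would not separate it. ATF3, a factor induced by ATF4, had 128, 164 and 138 in WT and 238, 204 and 199 in GFI1-KO. The log2 fold change was 0.58 ± 0.12 (GC-corrected 0.49). TRIB3, a pseudokinase that restrains ATF4 and CHOP, was higher by 0.29 ± 0.04 without correction but lower by the GC-corrected value of -0.29. VLDLR, a lipoprotein receptor, had a log2 fold change of -0.13 ± 0.07 that did not pass (edgeR adjusted p = 0.114) and a GC-corrected value of 0.23 that did.

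Of the 5 members of amino acid synthesis 4 were higher. PHGDH, the first enzyme of serine synthesis, had 3668, 3619 and 3633 normalized counts in WT and 5731, 6009 and 5893 in GFI1-KO. It stood apart in every library, with a log2 fold change of 0.69 ± 0.03 (edgeR adjusted p = 4.02e-16) and 0.60 after GC correction. The next enzymes of the same path differed less: PSAT1 had a log2 fold change of 0.07 ± 0.04 that did not pass (GC-corrected 0.30, which did), and PSPH was higher by 0.22 ± 0.06 (GC-corrected 0.10, which did not pass). The ratio of PHGDH to PSAT1 in FPKM was 0.277 ± 0.01 in WT and 0.428 ± 0.02 in GFI1-KO, and 0.343 in GFI1-KO with the GC-corrected fold changes. SHMT2, which makes glycine and one-carbon units from serine in mitochondria, was higher by 0.49 ± 0.03 (GC-corrected 0.11). SHMT2 overlaps the coding gene NDUFA4L2, and the overlapping gene with the most counts, coding or not, has 752 over the 6 libraries. ASNS, asparagine synthetase, had 95.2, 102 and 98.7 normalized counts in WT and 127, 115 and 130 in GFI1-KO. It was the member with the lowest level, 1.34 ± 0.05 FPKM in WT, and its log2 fold change of 0.33 ± 0.14 passed narrowly (edgeR adjusted p = 0.0322). The call on ASNS was lost with DESeq2, without a filter on low counts, and without WT replicate 1 or 3 or GFI1-KO replicate 1 or 3. Because 45.8% of the 50-base words of ASNS also occur in other genes, its count is uncertain.

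All 3 amino acid transporters were higher in both fits. SLC3A2, the shared heavy chain CD98, had 2098, 2031 and 2316 normalized counts in WT and 3258, 3207 and 3290 in GFI1-KO. The log2 fold change was 0.60 ± 0.04 (GC-corrected 0.43). SLC7A5 (LAT1), its partner for large neutral amino acids, had 2213, 2192 and 2089 in WT and 3789, 3601 and 3575 in GFI1-KO. It changed by 0.76 ± 0.04, with 0.18 after GC correction. SLC7A11 (xCT), its partner for cystine, was higher by 0.27 ± 0.04 and, with the lowest GC content of the members, 35.4%, by 0.94 after GC correction. The order of the 2 light chains by size of change was thus reversed between the fits.

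Members of low and of high GC content differed in the fit without correction. Among the 19 members below the median GC content of all tested genes, 48.2%, 9 were higher and 6 lower, and their median log2 fold change was 0.07, against 13.6% higher and 58.0% lower of all genes in that range, whose median was -0.33. Among the 20 members above it, 20 were higher, with a median of 0.75, against 59.6% of all genes in that range and a median of 0.40. In each range the median of the members thus lay above that of all genes in the range. Each range is wide, and within it the median of all genes still rose with GC content. Members and all genes of a range are therefore not matched in composition. Of the 6 members called lower, HSP90B1, CANX, DNAJB9, DNAJC3, ATF6 and EIF2AK3, all were in the range of low GC content. Members with a call and a log2 fold change of 0.5 or more in both fits were MANF, CRELD2, ATF4, PHGDH, DDIT3, DDIT4, CHAC1 and PPP1R15A.

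**Figure D4:**
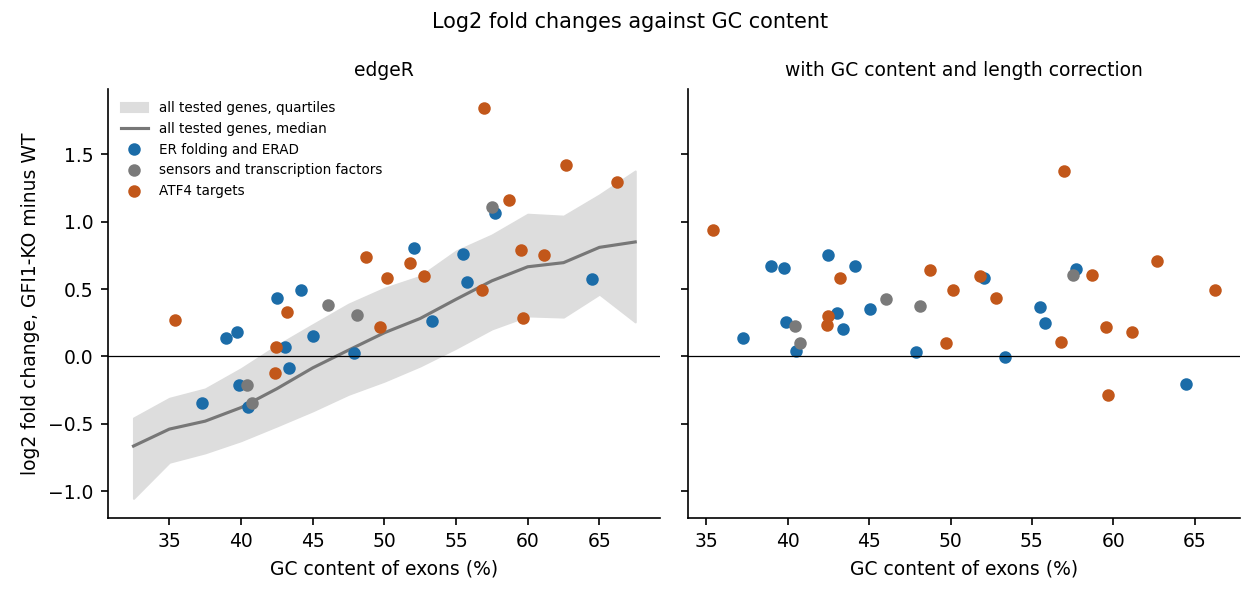
Log2 fold change (GFI1-KO minus WT) of the 39 members against the GC content of their exons in percent, in the edgeR fit (left, with the median and quartiles of all tested genes in bins of GC content) and after GC content and length correction (right). The left points climb along the band of all genes (rho 0.81), the right ones do not (rho -0.06), and PPP1R15A lies highest in both.

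The other genes of the pathway, 113 in 7 lists, of which 111 were tested, moved in both directions. Of these, 58 were higher (52.3%) and 44 lower (39.6%), against 36.5% and 35.9% of all genes tested, and the median was 0.13. In the GC-corrected fit 62 were higher (55.9%) and 27 lower (24.3%), against 32.8% and 28.3% of all genes tested. The counts of each list below stand beside these same shares of all genes, and no list was tested as a set. Among 24 tested genes of ER folding, 11 were higher and 9 lower (GC-corrected 16 and 1). FKBP2, a prolyl isomerase, had a log2 fold change of 2.33 ± 0.07, TXNDC5, a disulfide isomerase, of 2.22 ± 0.14 and ERP29, an escort of secretory proteins, of 1.38 ± 0.04, and all 3 were also higher after GC correction at 1.59, 2.11 and 1.31. These changes were larger than that of any ER member. The lowest, the oxidoreductase DNAJC10 (-0.60 ± 0.03) and the oxidases ERO1A (-0.49 ± 0.05) and ERO1B (-0.42 ± 0.07), did not pass after GC correction, at 0.04, 0.05 and 0.13.

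In ERAD, 8 of 17 other genes were higher and 7 lower (GC-corrected 9 and 4). OS9, a lectin that recognizes misfolded glycoproteins, was higher by 1.10 ± 0.05, SYVN1, the ligase HRD1, by 0.63 ± 0.06 and SELENOS by 0.53 ± 0.06, with GC-corrected values of 0.89, 0.22 and 0.58. VCP, the ATPase that pulls substrates out of the membrane, was lower in both fits (-0.31 ± 0.03, GC-corrected -0.27). UBE2J1 and SELENOK were lower at -0.48 ± 0.04 and -0.43 ± 0.08, but did not pass with GC correction at -0.01 and -0.10. Of 18 tested genes of sensors, proteases and eIF2 control, 7 were higher and 10 lower (GC-corrected 9 and 7). NUPR1, a stress-induced chromatin protein, was highest with 313 ± 27.6 and 1321 ± 88.2 normalized counts (SD, n = 3) and a log2 fold change of 2.08 ± 0.07 (GC-corrected 2.04). ATF5, which is translated under the same control as ATF4, was higher by 0.99 ± 0.04 (0.46) and ATF6B by 0.65 ± 0.05 (0.24). The eIF2α kinases EIF2AK4 (GCN2) and EIF2AK2 (PKR) were lower at -0.63 ± 0.04 and -0.60 ± 0.04, and at -0.36 and -0.09 with GC correction, which both passed.

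Among 20 other ATF4 targets, 13 were higher and 5 lower (GC-corrected 10 and 7). JDP2, a bZIP repressor, was higher by 1.68 ± 0.13 (GC-corrected 1.50), SLC6A9, a glycine transporter, by 1.65 ± 0.14 (1.07) and GDF15, a secreted stress cytokine, by 1.59 ± 0.07 (0.98). XPOT, a tRNA exporter, was lower at -0.64 ± 0.04 (-0.19) and ALDH18A1, of proline synthesis, at -0.27 ± 0.04 (-0.36), while ALDH1L2, a mitochondrial folate enzyme, was lower at -0.11 ± 0.05 and higher by 0.30 after GC correction. Of 12 cytosolic tRNA synthetases, several of which ATF4 is known to raise, 7 were higher and 5 lower (GC-corrected 8 and 1). WARS was highest at 0.75 ± 0.03 (0.73), AARS was higher by 0.43 ± 0.03 (0.22) and MARS by 0.15 ± 0.03 (0.09), and LARS, IARS and NARS, at -0.48 ± 0.04, -0.34 ± 0.03 and -0.31 ± 0.03, did not pass with GC correction.

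Heat shock genes outside the ER were counted as well. Of 14 in the cytosol, 10 were higher and 4 lower (GC-corrected 8 and 3). HSPA1B, an inducible Hsp70, was higher by 1.44 ± 0.06 (GC-corrected 0.88) and its cochaperone DNAJB1 by 0.89 ± 0.04 (0.51), while HSPB1, higher by 0.82 ± 0.05, did not pass after GC correction at 0.08. HSPA1B has a near-identical copy, HSPA1A, and their counts cannot be told apart with certainty. Both cytosolic Hsp90 genes were lower in both fits, HSP90AA1 at -0.61 ± 0.03 (GC-corrected -0.45) and HSP90AB1 at -0.38 ± 0.03 (-0.46), as was HSPA4 at -0.56 ± 0.03 (-0.20). Of 6 mitochondrial genes, 2 were higher and 4 lower in each fit, although LONP1 and HSPA9 changed places. HSPD1 and HSPE1, the Hsp60 chaperonin and its cochaperonin, were lower at -0.41 ± 0.03 (-0.12) and -0.47 ± 0.06 (-0.49) and TRAP1 at -0.31 ± 0.05 (-0.68), the protease subunit CLPP was higher by 0.84 ± 0.07 (0.35), and the protease LONP1 turned from 0.35 ± 0.04 to -0.25.

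**Figure D5:**
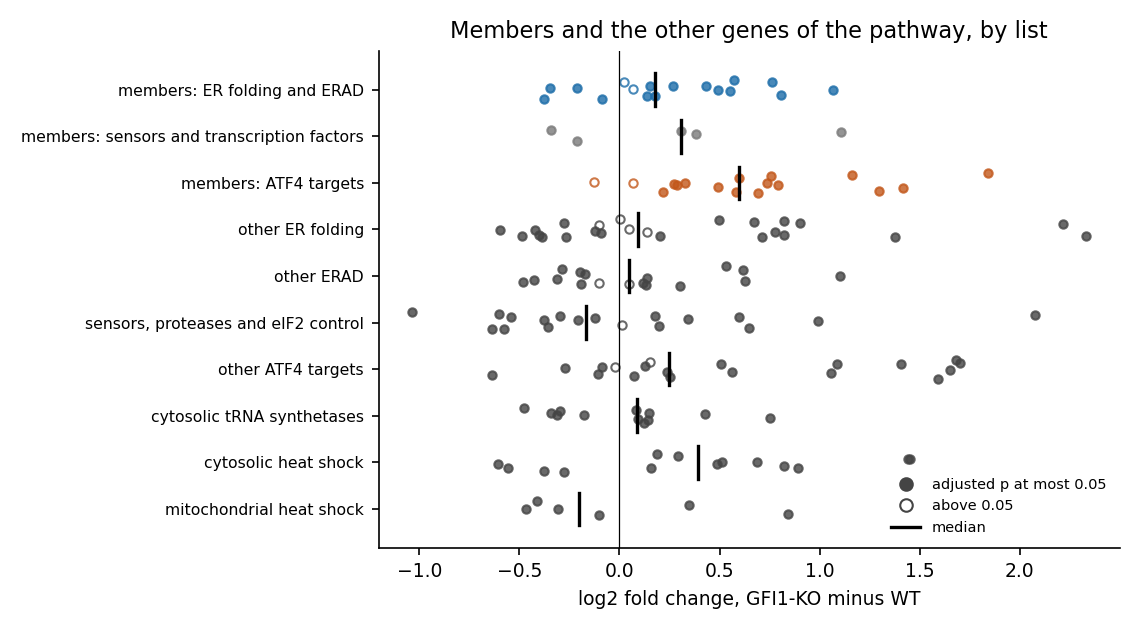
Log2 fold change (GFI1-KO minus WT) of every tested member and of the other pathway genes by list, with filled points at an adjusted p of at most 0.05, open points above it, and bars at the list's median. Members that are ATF4 targets have a median of 0.60 and the other ATF4 targets of 0.25, and the medians of sensors and eIF2 control (-0.16) and of mitochondrial heat shock genes (-0.20) lie below 0. SLC7A3, at 0 in every GFI1-KO library, is left out of the points but counted in the median.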

How the data were processed

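RNA-Seq of 6 H1155 libraries (3 WT and 3 GFI1-KO by their labels) was analysed from the counts per gene that the authors deposited, without normalization, together with each gene's start, end and length in bases. According to the methods of the paper, the authors used poly-T selection, NovaSeq sequencing, FastQC, Hisat2 alignment to GRCh38/hg38 and featureCounts. The submitters' processing notes name Bowtie2 and HTSeq instead. The strand setting, the gene annotation and the handling of reads with several matches are not given in the sources used here.

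The groups were compared in edgeR 4.0.16 under R 4.3.3 (TMM factors, filterByExpr, quasi-likelihood F test, Benjamini-Hochberg adjustment over 17514 genes, adjusted p of at most 0.05, no replicate block, no fold minimum). Standard errors were derived from the log2 fold change and the square root of its F value. Normalized counts are counts scaled to the mean TMM effective library size. GC content was taken from the merged exons of GENCODE release 44 on GRCh38 (99.4% of the tested genes), and the correction used natural splines of 5 degrees of freedom for GC content and length in each library. A count was called uncertain where over 10% of 50-base words occur in other genes. Values in every library are given for members with a call and a log2 fold change of at least 0.5 in size and for HSPA5, HSP90B1, CALR, DDIT3, ASNS, ATF4, XBP1, ATF6, ERN1 and EIF2AK3. Of each other list, up to 3 genes highest and 3 lowest among calls with a mean of at least 100 counts are named, and other genes were chosen after their values were seen. Members and lists were chosen with earlier results of these data known. Alternatives were median-of-ratios factors, no filter, at least 10 counts in every library, DESeq2, limma-voom 3.58.1, a replicate block, the GC content and length correction with and without it, each library left out, and an adjusted p of at most 0.01. The steps were tested on simulated data. Scripts used Python 3.11.15, pandas 2.3.3 and numpy 2.4.6. A549 RNA-Seq and ChIP-Seq were not analysed here.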

Additional observations from a re-analysis of the deposited data

How the results depend on the processing

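Of the 39 members, 34 kept direction and call under all 13 alternatives other than the GC corrections, and 26 did under the GC content and length correction. With that correction, and equally with the correction and the replicate block, the members called lower fell from 6 to 2, the ER members called lower from 4 to 1 and other pathway genes called lower from 44 to 27, the ATF4 targets called lower went from 0 to 1, and the median log2 fold change went from 0.18 to 0.33 for ER members and from 0.60 to 0.49 for ATF4 targets. The log2 fold changes that turned in direction became 0.039 for HSP90B1, 0.21 for CANX, -0.0063 for PDIA4, 0.14 for DNAJB9, 0.26 for DNAJC3, -0.21 for SDF2L1, 0.10 for ATF6, 0.23 for EIF2AK3, -0.29 for TRIB3 and 0.23 for VLDLR. Leaving out 1 library at a time, the median of ATF4 targets lay between 0.57 and 0.68, the latter without WT replicate 2, and PDIA6, never past the threshold, between -0.021 and 0.042. The call on ASNS was lost with DESeq2, and those on ASNS and CANX at an adjusted p of at most 0.01. The causes of these shifts were not tested. The replicate block left 29 members higher and 6 lower and changed no member's call. Same-numbered libraries deviated together with r of -0.00337, 0.0168 and 0.0230, so the numbers do not pair the libraries. The depth leaves every member far above 3 counts, and the limit lies in 3 libraries a group, whose independence is not stated.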

Other observations

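SLC7A3, a transporter of cationic amino acids listed among the other ATF4 targets, had 105, 75 and 90 counts in the WT libraries and 0 counts in each of the 3 GFI1-KO libraries. Against a floor of 3 counts per library it was at least 33.4-fold lower in GFI1-KO. It was below the mean of 100 counts set for named genes and was chosen after its values were seen.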
